A study of Mus musculus with 4 samples.

Results

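mmu-miR-221-3p and mmu-miR-222-3p, called miR-221-3p and miR-222-3p here, are the main products of a pair of neighbouring microRNA (miRNA) genes. They were taken by name from an array that measures 1881 mouse miRNAs, so the members were 2 of 1881. Of those 1881 miRNAs, 467 were detected on at least 1 array and 283 on all 4. The samples were exosome fractions, small vesicles collected by ultracentrifugation from the culture medium of 3T3-L1 cells, a mouse fibroblast-like line that turns into adipocytes when it is given inducing hormones. D0 medium came from cells in growth medium in low-glucose DMEM. D4, D12 and D16 media came from cells first given insulin, dexamethasone and 1-methyl-3-isobutylxanthine in high-glucose DMEM and then kept in insulin alone. All media held exosome-depleted fetal bovine serum. Each day was measured on 1 array, a pool of independent experiments, so the days have no replicates and no test between days was made. An array measured the RNA recovered from the vesicles, in which fewer vesicles and less of a miRNA per vesicle cannot be told apart.

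A miRNA is cut from a hairpin precursor and loaded onto an Argonaute protein, where its seed, bases 2 to 8 from the 5′ end, pairs with target messages and lowers their output. miR-221 and miR-222 share a seed and are known for repressing the cell cycle inhibitor p27 and the receptor KIT. They are abundant in vascular and mesenchymal cells. In adipocytes their level inside the cell has been described as falling during differentiation, which makes their level in the secreted fraction by day the question here.

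The mature sequences of both members, and of the other array miRNA with their seed, show what they share. The seed stands in capitals, and the sequences and positions are those of RefSeq for GRCm38.p6.
miR-221-3p: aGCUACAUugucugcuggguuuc
miR-222-3p: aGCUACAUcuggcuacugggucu
miR-1928: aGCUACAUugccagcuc
miR-221-3p lies at chrX:19146307-19146329 and miR-222-3p at chrX:19146901-19146923, both on the minus strand, while miR-1928 lies at chr1:74206562-74206578, also on the minus strand. The members are identical over their first 8 bases and at 11 of 23 positions when read from the 5′ end. miR-1928 shares its first 10 bases with miR-221-3p. The seed GCUACAU occurred in 3 of the 1738 mature mouse entries of the RefSeq table, the 3 printed here.

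The precursor hairpins are shown to place each mature arm, with the -3p arm in capitals.
Mir221: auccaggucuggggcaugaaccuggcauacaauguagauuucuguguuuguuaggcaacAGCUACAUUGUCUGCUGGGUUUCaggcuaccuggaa
Mir222: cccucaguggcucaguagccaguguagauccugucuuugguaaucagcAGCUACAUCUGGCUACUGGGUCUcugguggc
Mir221 spans chrX:19146294-19146388 and Mir222 spans chrX:19146893-19146971. The hairpins are 95 and 79 bases long, and 504 bases lie between them. The other arm of Mir221 is miR-221-5p, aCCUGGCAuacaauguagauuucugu, which has a different seed, again in capitals. None of the 3 remaining miRNAs of this group that the array carries, miR-221-5p, miR-222-5p and miR-1928, was detected on any of the 4 arrays. Their summed probe signals lay between -0.18 and 1.64, under the detection limit for a probe on every array. The signal of the members was therefore read from the -3p arm alone.

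The arrays differed in brightness, which bears on every comparison between days. The scanner software detected 329, 426, 406 and 380 miRNAs on the arrays of D0, D4, D12 and D16. The median signal of the miRNAs detected on all 4 arrays was 12.1, 30.8, 24.3 and 17.7 in the same order. The signals are intensities in arbitrary units, and no scaling between arrays had been applied. The median spread between spots of a probe, as a coefficient of variation, was 21.1% at D0 and 7.19% to 8.07% on the later arrays. The D0 array was also uneven, with the right side brighter than the left. Markers fitted the labelled cell line in part: of 8 miRNAs typical of mesenchymal cells, 6 were detected at D0 and 7 on each later day, and miR-145a-5p on none. None of 3 miRNAs of striated muscle and none of 5 of epithelium was detected on any day. Only 467 of all 1881 miRNAs were detected on at least 1 array, so lack of detection was common.

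miR-221-3p was detected on all 4 arrays. In unscaled signal it was lowest at D0, highest at D4, and lower again on each later day. Its total signal, the sum over the probes that pass detection, was 4.86 with an error of 0.967 at D0. The D4 array gave 23.7 (error 2.47), the D12 array 18.6 (error 2.11) and the D16 array 11.6 (error 1.51). The error is that of the software within an array and holds no difference between cultures. The D0 total holds 1 probe and the later totals 2, so D0 was set against the later days over A_54_P3830, the probe that passed on each array. For this probe D4, D12 and D16 lay above D0 by 5.19, 4.22 and 1.98 combined errors, and over both probes by 6.06, 4.74 and 2.39, on the unscaled arrays. From D4 to D12 the signal was lower by 5.13, or 1.58 combined errors, so these neighbours were not separated clearly by their technical error. From D12 to D16 it was lower by 6.99, or 2.69 combined errors. In the order of levels D4, D12, D16 and D0, D4 and D16 lay 4.18 combined errors apart.

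miR-222-3p was detected at D4 only. Its listed signal there was 3.96 with an error of 1.25, against a limit of 3.76 (3 times the error) for the probe that passed. On the other days the file lists the placeholder of 0.1 that marks a miRNA as not detected. With 3 times the error of the same probe as the floor on the other days, bounds were formed. The D4 signal was 1.60 times the floor at D0, 1.17 times that at D12 and 1.48 times that at D16. These bounds hold for the unscaled arrays and leave out the error of the D4 signal. For this probe D4 and D12 lay 0.818 combined errors apart, so D4 was not separated from D12. Once the arrays were scaled by the spike-in RNAs or by a percentile of the shared miRNAs, the bound for D4 over D0 was under 1 and no fold is given. The D4 array was brighter than those of D12 and D16 by each of these scalings, and no scaled bound over those days is given. Detection at D4 only was shared by 23 miRNAs, 5.40% of the 426 detected that day, with signals from 3.86 to 33.9 and a median of 4.35.

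Each member was measured by 2 probes with 15 spots each. The probe A_54_P3830 of miR-221-3p read 4.86, 16.6, 13.2 and 7.87 from D0 to D16 in order of days. Its second probe, A_54_P2640, read 2.00, 7.13, 5.42 and 3.73 on the same days. The D0 reading of that second probe fell short of its limit of 2.54, so the total at D0 is 1 probe and the totals of the later days are sums of 2. The probe A_54_P2644 of miR-222-3p read 0.968, 3.96, 2.58 and 1.64 from D0 to D16. Its other probe, A_54_P2643, read 0.662, 2.47, 1.56 and 0.884 and passed detection on no day. The 4 unscaled probes gave the same order of days, D4 above D12, D12 above D16 and D16 above D0. The median signals of the arrays, 30.8, 24.3, 17.7 and 12.1, had that order too, so it is not particular to these probes. For both probes of miR-222-3p every step between neighbouring days in that order was under 1 combined error, and D0 and D4 lay 1.99 errors apart for A_54_P2644 and 1.23 for A_54_P2643.

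Single spots show how firmly each day was measured. For A_54_P3830 the spots ran from 14.3 through a median of 19.1 to 40.9 at D0, and from 52.9 through 61.5 to 65.0 at D4. At D12 they ran from 42.8 through 48.3 to 57.9, and at D16 from 32.2 through 36.7 to 43.2. The spots of this probe at D4 and D12 did not overlap those at D0, whereas those at D16 did. Spots are unscaled repeats within 1 array, and the D4 and D12 arrays had median signals of 30.8 and 24.3 against 12.1 at D0. How many other probes lacked overlap is not given. For A_54_P2640 the D4 spots, 21.0 to 34.2 with a median of 25, lay above the D0 spots, 4.32 to 17.2 with a median of 8.02. Its spots at D12 (13.8 to 27.3, median 21.2) and D16 (13.5 to 21.3, median 18.0) overlapped those at D0. The software called 7 of 15 spots of A_54_P3830 well above background at D0 and all 15 on each later day. For A_54_P2640 it called 0, 14, 8 and 2 of 15 spots at D0, D4, D12 and D16.

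The spots of miR-222-3p stayed near the background. For A_54_P2644 they ran from -0.12 through 4.66 to 10.0 at D0 and from 8.66 through 15.7 to 19.4 at D4. The ranges overlapped narrowly. At D12 they ran from 4.59 through 9.69 to 13.7 and at D16 from 3.92 through 7.67 to 12.4. No spot of either miR-222-3p probe was called well above background on any array. The mean of A_54_P2644 lay 0.995, 3.65, 2.36 and 1.36 standard deviations above the mean of the negative controls from D0 to D16.

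**Figure D1:**
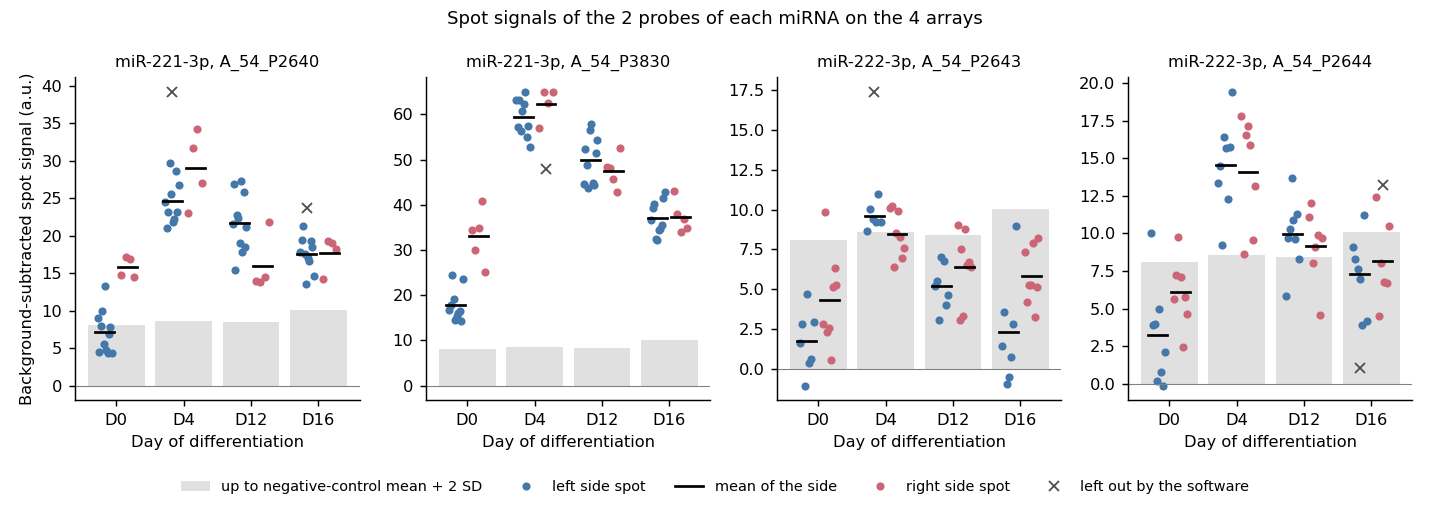
Background-subtracted signal of each spot (vertical axis, arbitrary units) for both probes of miR-221-3p and miR-222-3p on the arrays of D0, D4, D12 and D16 (horizontal axis). Points are spots on the left or right side of the array, black bars their means, crosses spots that the software left out, and grey bands reach from 0 to 2 standard deviations above the mean of the negative controls. The right side spots of miR-221-3p stand above its left side spots at D0 and mix with them at D16.

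The position of the spots on the D0 array matters for miR-221-3p. It has 21 spots on the left and 9 on the right, and only 41 of the 1881 miRNAs, 2.18%, have as many or more on the left, where the median is 15. miR-222-3p has 15 on each side. Summed over its probes, the mean spot signal of miR-221-3p at D0 was 25 on the left and 48.9 on the right, a ratio of 1.96. The median ratio of right to left over 308 detected miRNAs at D0 was 1.47, and miR-221-3p lay at their 97.2th percentile. On the later arrays its ratio was 1.09, 0.887 and 1.01. The summed spot signal of miR-222-3p was 4.96 on the left and 10.4 on the right at D0, and 24.2 and 22.6 at D4.

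Divided by its D0 signal as deposited, miR-221-3p stood at 4.88 ± 1.1, 3.83 ± 0.877 and 2.39 ± 0.569 for D4, D12 and D16 (propagated technical error, 1 array per day). All 3 ratios lie above 2, but so did 62.1% of the 317 miRNAs detected at both D0 and D4. For D12 the share was 47.8%, and for D16 it was 31.1%. The median ratio of all miRNAs was 2.47, 1.91 and 1.32, so much of the ratio was shared with the typical miRNA. The place of miR-221-3p among all ratios does not move with a constant factor on an array. It lay at the 77.4th, 79.6th and 74.2th percentile for D4, D12 and D16.

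The ratio was smaller when the same probe was compared on both days. Over the probes that passed on both, which for miR-221-3p is A_54_P3830 alone, the ratios were 3.41 ± 0.799, 2.71 ± 0.646 and 1.62 ± 0.404 for D4, D12 and D16. The shares of miRNAs above 2 by this measure were 60.1%, 43.8% and 25.6%. miR-221-3p then lay at the 73.9th, 76.9th and 65.6th percentile. The probe signal also carries the effective spot size, which the software set at 0.6 for D0 and D16 and estimated at 0.780 for D4 and 0.760 for D12. Mean spot signals, without that factor, gave ratios of 2.66, 2.14 and 1.69.

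Using the right side spots alone, the ratios of miR-221-3p were 1.87, 1.30 and 1.13. The medians of all miRNAs by the same measure were 1.51, 1.22 and 1.08, and 29.5%, 20.1% and 19.9% of miRNAs lay above 2. miR-221-3p lay at the 65.1th, 54.8th and 53.6th percentile, so on this side of the array it was near the middle of the miRNAs at D12 and D16. With left side spots the ratios were 3.37, 2.87 and 2.19. At D0 the right side spots of A_54_P3830 ran from 25.2 to 40.9, against 56.9 to 65.0, 42.8 to 52.5 and 33.9 to 43.2 for the later days. Those of D4 and D12 did not overlap those of D0, and those of D16 did. These spots are unscaled too, and the share of other probes without overlap is not given. What part of each ratio the unevenness of the D0 array had was not tested.

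**Figure D2:**
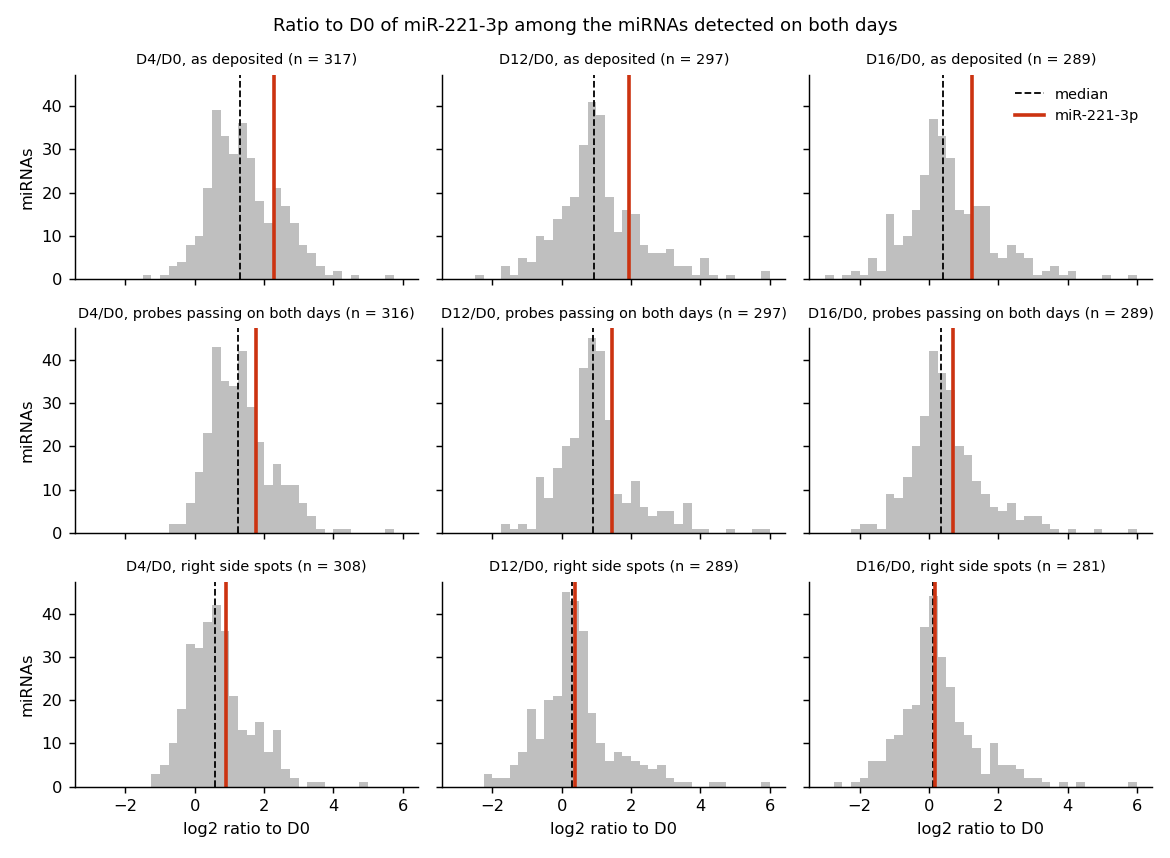
Histograms of the log2 ratio to D0 (horizontal axis) over the miRNAs detected on both days (vertical axis, number of miRNAs), with the median as a dashed line and miR-221-3p as a red line. From the top row to the bottom row, which use the deposited totals, the probes passing on both days and the right side spots, miR-221-3p moves from the 77.4th, 79.6th and 74.2th percentile to the 65.1th, 54.8th and 53.6th.

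Scaling the arrays moved the ratios further, as the plot of the ratio under each setting shows. After division by the median of the miRNAs detected on all 4 arrays, miR-221-3p stood at 1.92, 1.91 and 1.64 times its D0 level. With their 75th percentile it stood at 1.15, 1.16 and 1.06, so the D4 peak of the unscaled signal did not hold under every scaling. After division by the 4 spike-in RNAs, which are added control RNAs, it stood at 2.68, 2.22 and 1.88. The D4, D12 and D16 values lay below D0 in 1 of the settings tried, the 75th percentile applied to the probes passing on both days, with 0.802, 0.825 and 0.716. In the deposited values and in every other setting tried the level of miR-221-3p on each later day lay above that of D0, by as little as 1.02 times at D16. The settings share the same arrays and not every combination was tried, so their number does not measure support.

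**Figure D3:**
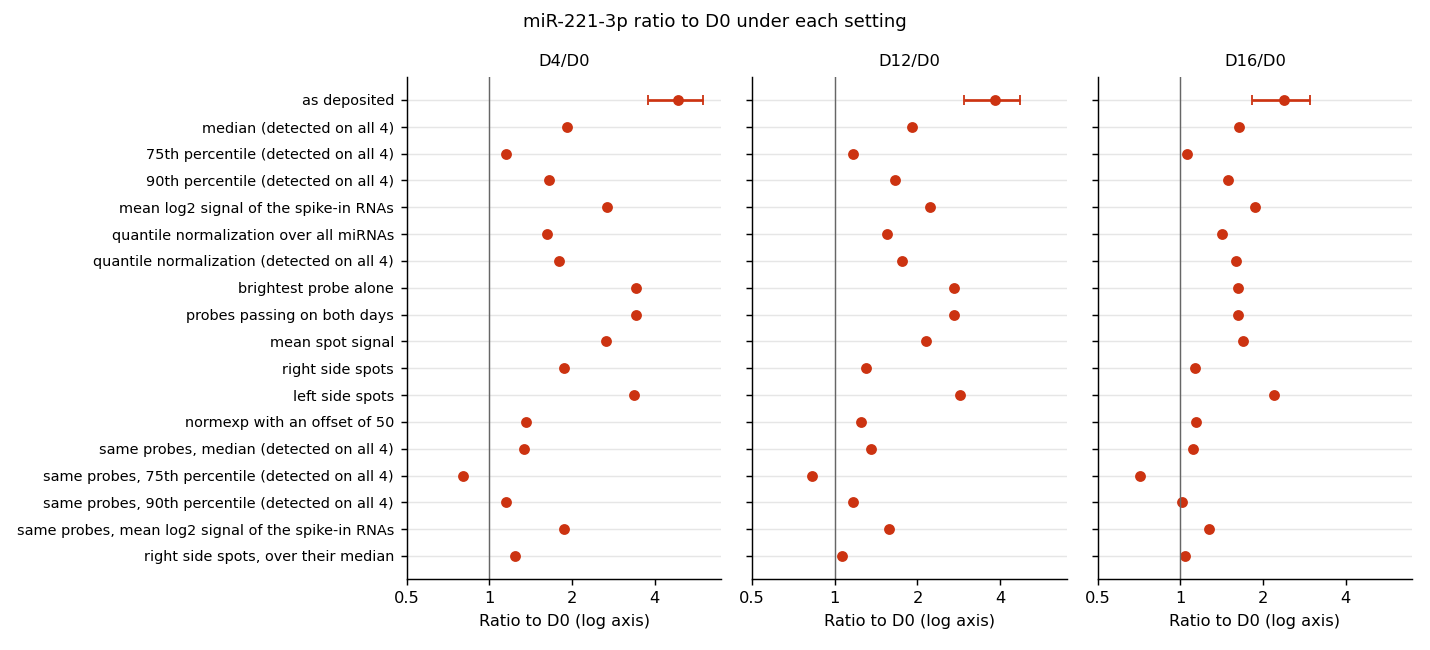
Ratio of miR-221-3p to its D0 level (horizontal axis, log scale) at D4, D12 and D16 under each way of summing probes or scaling arrays (vertical axis); the bar on the deposited value is its propagated technical error. The D4 values run from 4.88 down to 0.802, those of D12 from 3.83 to 0.825 and those of D16 from 2.39 to 0.716.

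Comparisons among the later days do not use the D0 array. From D4 to D12 the signal of miR-221-3p stood at 0.784 ± 0.121 of its earlier level, where the median over 374 miRNAs was 0.865 and miR-221-3p lay at the 35.7th percentile. From D12 to D16 the ratio was 0.624 ± 0.108 against a median of 0.703, at the 17.1th percentile of 371 miRNAs. Over the whole span from D4 to D16 it was 0.489 ± 0.0817 against a median of 0.592, at the 23.7th percentile of 356. Divided by that median it was 0.826. Mean spot signals, without the effective spot size, were 86.1, 69.3 and 54.7 at D4, D12 and D16. The ratio lay below the median in each of the 3 pairs, within 1 technical error of it for D4 to D12 and for D12 to D16 and beyond it for D4 to D16, which shares its arrays with the other pairs.

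An unequal change of the members between days could not be measured, because miR-222-3p was not above background at D0 and passed detection at D4 only. Summed over its probes, the mean spot signal of miR-221-3p was 32.4 ± 2.52 at D0 and 86.1 ± 1.53, 69.3 ± 1.72 and 54.7 ± 1.11 on the later days (standard error over the spots of 1 array). That of miR-222-3p was 7.69 ± 1.09 at D0 and 23.3 ± 0.912, 15.4 ± 0.775 and 11.9 ± 1.09 on the later days. Both were highest on the D4 array and lowest on the D0 array, which were also the brightest and the dimmest arrays by median signal. No ratio to D0 is given for miR-222-3p beyond its unscaled bound at D4, 1.60 times the floor at D0. That bound is a lower limit and fell under 1 after each scaling, so it cannot show whether the members changed alike. The members also differ in where their spots lie, so the unevenness of the D0 array would not cancel between them.

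The miRNAs with a profile nearest to that of miR-221-3p were sought among the 282 others detected on all 4 arrays, by Euclidean distance between log2 ratios to D0 over the 3 later days. They were miR-467a-3p at a distance of 0.0927, miR-467d-3p at 0.141, miR-7069-3p at 0.169, miR-23a-3p at 0.192 and miR-669c-3p at 0.197. For miR-467a-3p the signals were 42.1, 199, 155 and 104 from D0 to D16, with ratios of 4.73, 3.67 and 2.48. For miR-23a-3p they were 46.7, 246, 172 and 124, with ratios of 5.27, 3.69 and 2.65. The likeness rested on the deposited totals: over the probes passing on both days the 5 nearest were miR-5100, miR-6973a-3p, miR-466q, miR-574-3p and miR-466h-3p, and 0 were shared. All these ratios share the D0 array. miR-222-3p was not detected on all 4 arrays, so no likeness was computed for it.

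The members belong to a list of 11 miRNAs described as falling inside cells during adipogenesis. Of these, 3, 7, 5 and 4 were detected from D0 to D16, against 329, 426, 406 and 380 of the 1881 miRNAs on the array. The 3 with a signal at D0 had deposited ratios above 2 on each later day, as did 62.1%, 47.8% and 31.1% of all miRNAs at D4, D12 and D16. For miR-221-3p this did not hold with right side spots on any of these days, nor over the probes passing on both days at D16. miR-27a-3p, which represses the adipogenic regulator PPARγ, read 18.0, 93.9, 62.0 and 48.6 from D0 to D16. Its ratios were 5.21, 3.44 and 2.70, and 3.31, 2.16 and 2.24 with right side spots. miR-130a-3p, another repressor of PPARγ, read 15.4, 84.7, 143 and 107, with ratios of 5.50, 9.30 and 6.94. Unlike miR-221-3p and miR-27a-3p, it was highest at D12 in unscaled signal, where the D12 array was brighter than the D16 array (median 24.3 against 17.7).

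The other detected members of that list were not detected at D0. miR-155-5p, known from inflammatory cells and as a repressor of C/EBPβ, was detected at D4 only, with 33.9, the highest signal among the 23 miRNAs with that pattern. It was at least 6.80-fold higher at D4 than at D0, and at least 1.60-fold under the scaling that lowered it most. Over D12 and D16 it was at least 5.08-fold and 6.39-fold higher on the unscaled arrays. Under the scaling that lowered each most, these bounds were 3.92-fold and 3.40-fold. miR-31-5p read 18.3 at D4 and 4.36 at D12 and was not detected at D0 or D16, so D4 was at least 3.63-fold higher than D0. That bound fell under 1 with the 75th percentile of the shared miRNAs. miR-27b-3p was near its limit, with 4.01, 4.18 and 3.73 on the later days and no detection at D0. miR-130b-3p, miR-138-5p, miR-363-3p and miR-448-3p were detected on no day.

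A contrasting list of 20 miRNAs described as rising in adipogenesis had 8 members with a signal at D0, and all 8 had ratios above 2 at D4, as did 62.1% of all miRNAs. Their D4 ratios had a median of 11.8 and ran from 5.07 for miR-92a-3p to 16.5 for miR-103-3p, a miRNA linked to insulin sensitivity. At D12 they ran from 5.40 for miR-92a-3p to 22.6 for miR-26b-5p. The ratio of miR-221-3p, 4.88 at D4 and 3.83 at D12, was below those of all 8. It was also below all 8 at D16, where their lowest was 3.13. At D4 the lowest of the 8, 5.07, lay within the technical error of 1.1 of miR-221-3p. From the falling list, miR-27a-3p and miR-130a-3p had D4 ratios above 5.07, with 5.21 and 5.50. Over the probes passing on both days the median D4 ratio of the 8 was 7.38. With right side spots the lowest of the 8 was 2.79 at D4, also above the 1.87 of miR-221-3p.

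**Figure D4:**
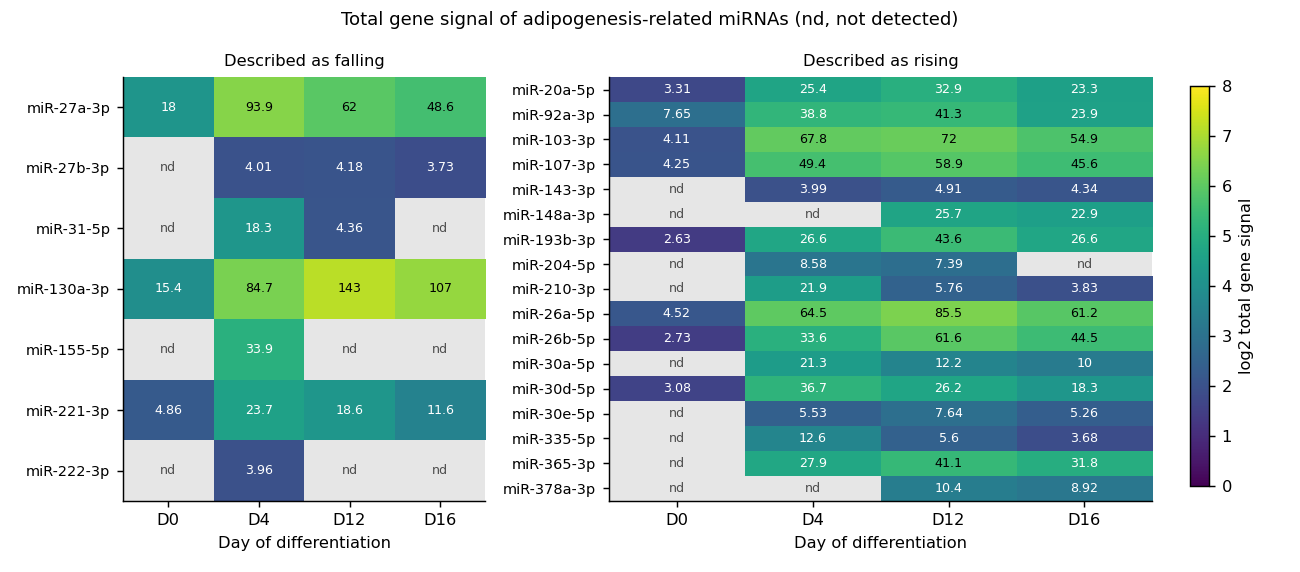
Total gene signal (colour, log2 scale, with the unscaled intensity printed in each cell) by day for the detected members of the lists described as falling (left) and as rising (right) in adipogenesis; grey cells marked nd were not detected. miR-221-3p reads 4.86, 23.7, 18.6 and 11.6, and miR-222-3p has a signal at D4 only.

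Signals of other cell types differed between the arrays as well. The 3 miRNAs of red blood cells summed to 9.40, 468, 2524 and 1649 from D0 to D16. Of 5 miRNAs of liver, leukocytes and endothelium, 0 were detected at D0, and the detected ones summed to 30.2, 137 and 117 on the later days. The 8 mesenchymal miRNAs summed to 292, 2014, 1508 and 1044 on the unscaled arrays. Of the 7 detected there, 4 were highest at D4, the array with the highest median signal, and 3 at D12. The share of all miRNAs with each peak day is not given. The D4 ratios of the 6 detected at D0 ran from 5.68 for miR-21a-5p to 9.25 for miR-199a-3p. The part of these sources in the signal of the members was not tested.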

How the data were processed

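RNA of the exosome fraction was measured on 4 single-colour Agilent miRNA arrays, 1 for each day. The methods describe a mix of 2 experiments per day and the sample names give 3, so each array is a pool. The authors deposited scanner output of Feature Extraction 11.0.1.1 as background-subtracted intensity, unscaled between arrays. A miRNA's deposited intensity is the sum over probes above 3 times their error, or 0.1, a rule checked on all 1881 miRNAs. An aligner or genome build plays no part in these values.

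From these intensities ratios to D0, percentiles, distances (Python 3.11.15, numpy 2.4.6, pandas 2.3.3) and normexp values with an offset of 50 (limma 3.58.1, R 4.3.3) were computed, and the steps were tested on simulated data. Percentiles run over the miRNAs detected on both days. Floors are 3 errors, and propagated errors cover spots of an array only. The number of arrays limits the precision. The intended difference between the ratios of the members is not given, because miR-222-3p was not detected at D0.

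Named miRNAs are the members, the other arms, sharers of the seed, the 5 nearest profiles, detected members of the falling list and at most 4 of any other list with the highest or lowest D4 or D12 ratio; miR-23a-3p and miR-467a-3p stand for the nearest. miR-145a-5p and the undetected members of the falling list were named after their values were seen. The members and lists were chosen with earlier results of these data known. Alternatives were 4 divisors, quantile normalization, other probe and spot summaries and normexp. Comparing the same probes under each divisor, right side spots over their median, and the percentile, count and distance by other probes or spots were added after the data had been seen.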

Additional observations from a re-analysis of the deposited data

How the results depend on the processing

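The D4, D12 and D16 ratios of miR-221-3p to D0 were, as deposited, 4.88, 3.83 and 2.39. They became 1.92, 1.91 and 1.64 after scaling by the median of the miRNAs detected on all 4 arrays, 1.15, 1.16 and 1.06 by their 75th percentile, and 1.65, 1.65 and 1.5 by their 90th. Scaling by the spike-in RNAs gave 2.68, 2.22 and 1.88. Quantile normalization gave 1.63, 1.55 and 1.42 over all miRNAs, and 1.80, 1.75 and 1.60 over those detected on all 4 arrays. The brightest probe, which is also the probe passing on both days, gave 3.41, 2.71 and 1.62, mean spots 2.66, 2.14 and 1.69, right side spots 1.87, 1.30 and 1.13, left side spots 3.37, 2.87 and 2.19, and normexp 1.36, 1.24 and 1.14. The probes passing on both days gave 1.34, 1.35 and 1.11 with the median, 1.15, 1.17 and 1.02 with the 90th percentile, 1.87, 1.58 and 1.27 with the spike-in RNAs, and 0.802, 0.825 and 0.716, below D0, with the 75th percentile. Right side spots over their median gave 1.24, 1.06 and 1.04. The cause of the spread was not tested. Scaling by the 75th percentile of all miRNAs gave no value, because that percentile is the placeholder of 0.1.

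The percentile of miR-221-3p, 77.4, 79.6 and 74.2, was 65.1, 54.8 and 53.6 with right side spots, 65.6 at D16 with the probes passing on both days, and 85.6 at D12 over miRNAs brighter than the D0 median. Its other alternatives, 5 for D4, 4 for D12 and 4 for D16, ran from 73.9 to 81.7, from 76.6 to 79.5 and from 67.6 to 81.4. The difference between the log2 ratios of the members and its alternatives are not reported, because miR-222-3p was not above background at D0. The bound of miR-222-3p for D4 over D0, 1.60, became 0.876, 0.627, 0.540 and 0.375 with the spike-in RNAs, the median, the 90th and the 75th percentile.

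From D4 to D16, the miRNAs with a ratio above 2 numbered 197, 142 and 90. The median scaling gave 67, 58 and 53, and the other settings 21, 30 and 33 with the 75th percentile, 46, 43 and 42 with the 90th, 92 and 72 at D4 and D12 with the spike-in RNAs, 37, 38 and 40 and 46, 48 and 53 with the quantile normalizations over all and over the shared miRNAs, 91, 58 and 56 with right side spots, and 129 at D4 among bright miRNAs. Of the 5 nearest miRNAs, 1 was shared when ranked by correlation and 0 over the probes passing on both days. No paired analysis was possible because each day has 1 array and the result comes from no test. Signals of miR-222-3p near background limit its folds.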
